A study of Homo sapiens with 6 samples.

Results

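Genes of the caspase cascade, of death-receptor and necroptosis signalling, and of the p53 pathway were followed in RL cells treated with LY317615. RL cells are an established line grown from a human B-cell lymphoma and have a t(14;18), the rearrangement that joins BCL2 to the heavy-chain locus of immunoglobulins. LY317615, or enzastaurin, was made to inhibit the beta form of protein kinase C. Total RNA was measured on Affymetrix Gene 1.0 ST arrays, on which a probe set is a group of probes read together for a transcript. The untreated group held 3 arrays of RL cells, all titled 48 h, for which the labels name no vehicle. The treated group held 3 arrays of RL cells kept with LY317615 for 48 h, at a dose that the labels give as 2.5 mM, a unit that could not be checked here. All arrays come from this 1 cell line, and no label says that the replicates were separate cultures. The p-values therefore set each change only against the spread of these arrays within their groups, and that spread may be technical.

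The genes were taken from a list of 37 symbols, and each was read from its brightest probe set annotated to that symbol alone. This gave 35 of 18417 measured genes, 16 of 17 in the caspase and death-signalling group and 19 of 20 in the p53 group. RIPK1 and FDXR were not analysed here. CFLAR alone among them had 2 such probe sets.

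Caspases are proteases made as inactive precursors. Initiator caspases are switched on at death receptors, through the adaptor FADD, or on the apoptosome, a platform that APAF1 builds when cytochrome c leaves mitochondria; they then cleave executioner caspases. Inhibitor of apoptosis proteins hold caspases and death-receptor complexes in check, and when caspase-8 is blocked, RIPK3 and MLKL can kill the cell by necroptosis instead. The transcription factor p53 answers DNA damage and other stresses by raising genes for growth arrest, repair and apoptosis, together with the genes of its own inhibitors MDM2 and PPM1D. Lymphomas with t(14;18) overproduce BCL2, which acts upstream of the apoptosome.

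Median probe-set intensity ran from 56.7 to 58.2 on the untreated and from 60.0 to 61.4 on the treated arrays, and the number of arrays limits the precision. By limma's array weights LY317615 replicate 3 was the noisiest array (0.376, the other arrays 1.04 to 1.51), so values without it are given for genes that moved most when it was left out. The 6 measured of 7 B-cell marker genes had untreated intensities at percentiles 87.5 to 98.9 of all genes, and 5 of them fell with treatment; their summed intensity was 10250 to 10762 on untreated and 7183 to 7873 on treated arrays. The 7 marker genes of T and NK cells stood at percentiles 11.6 to 51.2, and 2 of them rose. Of 6 myeloid marker genes, at percentiles 8.47 to 30.5, 4 rose. Of 6 stromal and epithelial marker genes, at percentiles 9.09 to 59.4, 1 fell. At the adjusted p of 0.05 used for these counts, 14.2% of all genes rose and 21.4% fell. In the brightest of 5 equal intensity bins 9.47% of all genes rose and 47.6% fell, and in the 2 dimmest 6.73% and 18.1% rose. The summed intensity of the T and NK list ran from 256 to 265 on untreated and from 278 to 333 on treated arrays, and that of the myeloid list from 148 to 155 and from 183 to 214. No detection calls came with these values, and the part of such dim signal in the results below was not tested.

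After 48 h with LY317615 genes of the p53 pathway and of death signalling passed the test in both directions. AEN, a nuclease gene that p53 induces in apoptosis, was 1.97-fold lower, and TP53INP1, a p53-induced stress gene, was 1.59-fold higher. In death-receptor signalling, the adaptor gene TRADD was 1.51-fold higher. CFLAR, which encodes the caspase-8 inhibitor c-FLIP, was 1.39-fold higher on the brighter of its 2 probe sets and did not pass on the other. Of the 19 measured p53-pathway genes, 7 fell and 4 rose at an adjusted p of 0.05 (limma, Benjamini-Hochberg adjustment over all 18417 genes). Of the 16 measured caspase and death-signalling genes, 2 fell and 4 rose. Among all genes 35.7% passed, 21.4% lower and 14.2% higher, which is 3946 and 2622 genes; with array medians set equal they were 4861 and 1523.

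In share of genes passed, the p53 group stood at 57.9% and the caspase group at 37.5%. Untreated intensity had a median percentile of 79.4 in the p53 group and 69.5 in the caspase group. In the 2 brightest of 5 equal intensity bins, 49.6% and 57.1% of all genes passed. The members were also chosen with earlier results of these data known. The median log2 fold change was -0.14 in the p53 group, -0.03 in the caspase group and 0.02 over all genes. In both groups the median says little, since members moved both ways: the median size of change, without its sign, was 0.39 for p53-pathway genes, 0.21 for caspase and death-signalling genes and 0.20 over all genes. Changes of at least 0.5 on the log2 scale were seen in 3 of the 35 genes, AEN, TP53INP1 and TRADD, and in 11.8% of all genes. All treated arrays lay above or all below the untreated arrays in 13 of 19 p53-pathway genes and in 11 of 16 caspase genes, against 49.8% of all genes. Of all 35, the treated arrays were above in 9 and below in 15, against 22.0% and 27.8% of all genes. Both groups come from the same 6 arrays, and the difference between them was not tested.

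**Figure D1:**
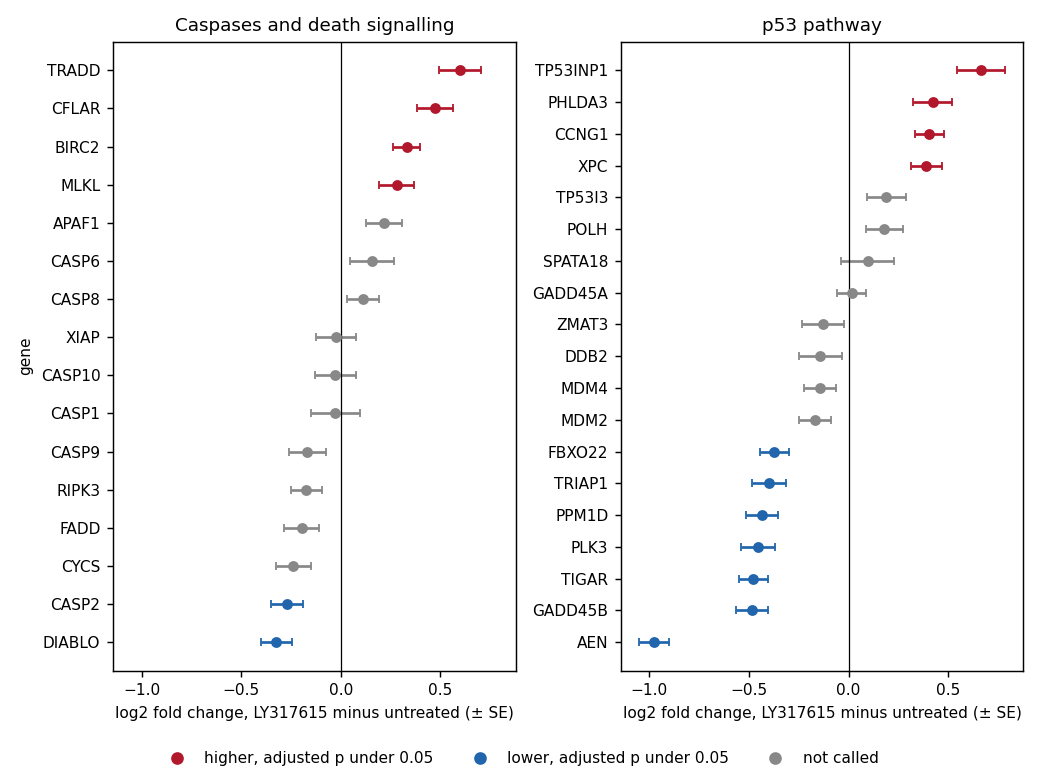
Log2 fold change (LY317615 minus untreated, x axis) of each measured gene (y axis), with the standard error from limma as the bar; 16 caspase and death-signalling genes are on the left and 19 p53-pathway genes on the right. Red points passed as higher and blue points as lower; the p53 group has 7 blue and 4 red points, with AEN at -0.98 as the lowest.

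The caspase genes themselves changed little. CASP2, an initiator caspase gene linked to the response to DNA damage and spindle faults, read 9.14, 9.24 and 9.21 on the log2 scale in untreated and 9.05, 8.84 and 8.91 in treated arrays. All treated arrays lay below all untreated ones, and the change was -0.27 ± 0.08 (SE, adjusted p = 0.0311). That call was lost under 8 of 15 alternatives, including leaving out untreated replicate 1 (adjusted p = 0.0519), 2 (0.103) or 3 (0.0894) or LY317615 replicate 2 (0.0898) or 3 (0.0626), the replicate block (0.0522) and cyclic loess (0.287).

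CASP9, the initiator caspase of the apoptosome, read 8.58, 8.67 and 8.60 in untreated and 8.55, 8.53 and 8.26 in treated arrays. The groups did not overlap, but LY317615 replicate 3 lay well below the other treated arrays, and the change of -0.17 ± 0.09 did not pass (adjusted p = 0.185). Without that array it was -0.08 (adjusted p = 0.436). CASP8 and CASP10, the initiator caspases of death receptors, had overlapping groups. CASP8 read 7.79, 7.86 and 7.83 in untreated and 7.98, 8.03 and 7.81 in treated arrays, a change of 0.11 ± 0.08 (adjusted p = 0.310). LY317615 replicate 3 was the only treated array not above the untreated ones, and without it the change was 0.18 (adjusted p = 0.0928). After cyclic loess, which takes out trends with intensity, it passed at 0.22 (adjusted p = 0.0344). CASP10 differed by -0.03 ± 0.10 (adjusted p = 0.857), with both groups spread over about the same range, 6.03 to 6.28 in untreated and 5.98 to 6.25 in treated arrays.

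The executioner caspase gene CASP6 read 6.60, 6.70 and 6.48 in untreated and 6.98, 6.62 and 6.66 in treated arrays. Only LY317615 replicate 1 lay above all untreated arrays, and the change of 0.16 ± 0.11 did not pass (adjusted p = 0.287). Without that array it was 0.05 (adjusted p = 0.735). CASP1, the caspase that matures interleukin-1 beta in inflammation, was at percentile 4.14 of untreated intensity, with values of 3.04 to 3.36 in untreated and 3.02 to 3.41 in treated arrays. At that level it is not known whether its probe set read above background, and close copies of CASP1 without the protease part may share its probes.

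Of the 3 genes of the apoptosome route, only DIABLO passed. DIABLO encodes SMAC, a mitochondrial protein that frees caspases from inhibitor of apoptosis proteins. It read 8.20, 8.12 and 8.25 in untreated and 7.91, 7.78 and 7.90 in treated arrays, with no overlap. The change of -0.32 ± 0.08 (adjusted p = 0.0117) fell short without untreated replicate 3 (adjusted p = 0.0514) and after cyclic loess (-0.20, adjusted p = 0.0877).

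CYCS, the gene of cytochrome c, read 10.18, 10.22 and 10.33 in untreated and 10.01, 9.88 and 10.12 in treated arrays. The groups did not overlap and the change was -0.24 ± 0.09, just outside the threshold (adjusted p = 0.0608). It passed without LY317615 replicate 3 (-0.30, adjusted p = 0.0326) and with array medians set equal (-0.32, adjusted p = 0.0203), among other settings. It was smaller without LY317615 replicate 2 (-0.18, adjusted p = 0.168) and after cyclic loess (-0.11, adjusted p = 0.417). CYCS has many processed pseudogenes, so its probes may read more than 1 locus. APAF1, the apoptosome scaffold, read 9.16, 9.14 and 9.08 in untreated and 9.52, 9.26 and 9.25 in treated arrays. All treated arrays were higher, LY317615 replicate 1 most, and the change of 0.22 ± 0.09 did not pass (adjusted p = 0.0892). Without LY317615 replicate 1 it was 0.13 (adjusted p = 0.245), and after cyclic loess it passed at 0.37 (adjusted p = 0.00977).

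Of the inhibitor of apoptosis genes, BIRC2 rose. BIRC2 encodes cIAP1, a ubiquitin ligase of TNF receptor complexes that holds back cell death and noncanonical NF-kB signalling. It read 8.34, 8.35 and 8.38 in untreated and 8.70, 8.68 and 8.69 in treated arrays, the tightest groups among the caspase and death-signalling genes. The change was 0.33 ± 0.07 (adjusted p = 0.00579), a call that held under all 15 alternatives. XIAP, a direct inhibitor of caspases, read 8.49, 8.49 and 8.27 in untreated and 8.49, 8.44 and 8.24 in treated arrays. The groups overlapped almost wholly, and the difference was -0.02 ± 0.10 (adjusted p = 0.867).

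Among the adaptors and regulators of death receptors, TRADD and CFLAR rose. TRADD, the adaptor of TNF receptor 1, read 7.33, 7.36 and 7.26 in untreated and 7.99, 7.69 and 8.06 in treated arrays. Each treated array was above every untreated one, and the change of 0.60 ± 0.10 (adjusted p = 0.00253) was the largest among the caspase and death-signalling genes. FADD, which links death receptors to caspase-8, read 8.16, 8.07 and 8.03 in untreated and 7.76, 8.02 and 7.90 in treated arrays. All treated arrays were lower, LY317615 replicate 2 only just, and the change of -0.20 ± 0.09 did not pass (adjusted p = 0.113), except with array medians set equal (-0.27, adjusted p = 0.0381).

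CFLAR was read by 2 probe sets. On the brighter one, 8047401, it read 7.14, 7.27 and 7.08 in untreated and 7.68, 7.73 and 7.50 in treated arrays, with no overlap and a change of 0.47 ± 0.09 (adjusted p = 0.00417). On the other, 8047381, it read 7.05, 7.16 and 7.02 in untreated and 7.30, 7.48 and 7.16 in treated arrays. Here LY317615 replicate 3 fell just below untreated replicate 2. The change had the same sign at 0.24 ± 0.10 and did not pass in a fit over all 19460 probe sets with 1 gene name (adjusted p = 0.0842), of which 35.5% passed; without LY317615 replicate 3 it did (0.32, adjusted p = 0.0316). CFLAR, CASP10 and CASP8 lie next to each other on chromosome 2 in the RefSeq gene table, with 0 protein-coding genes between neighbours. Of these 3 neighbours CFLAR passed and the others did not; the difference between them was not tested.

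Of the necroptosis genes, MLKL, which makes the pore-forming effector, was dim and rose. It read 4.48, 4.67 and 4.69 in untreated and 4.81, 4.99 and 4.88 in treated arrays, with no overlap and a change of 0.28 ± 0.09 (adjusted p = 0.0342). That call was lost under 9 of 14 alternatives, among them leaving out untreated replicate 1 (adjusted p = 0.114), 2 (0.0626) or 3 (0.0531) or LY317615 replicate 2 (0.0951) or 3 (0.0603), and both changes of scaling (0.128 with equal array medians, 0.208 after loess). RIPK3, the kinase that activates MLKL, read 5.64, 5.57 and 5.54 in untreated and 5.48, 5.32 and 5.44 in treated arrays. All treated arrays were lower, by a change of -0.17 ± 0.08 that did not pass (adjusted p = 0.114) but did with array medians set equal (-0.25, adjusted p = 0.0359) and after cyclic loess (-0.29, adjusted p = 0.0129).

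**Figure D2:**
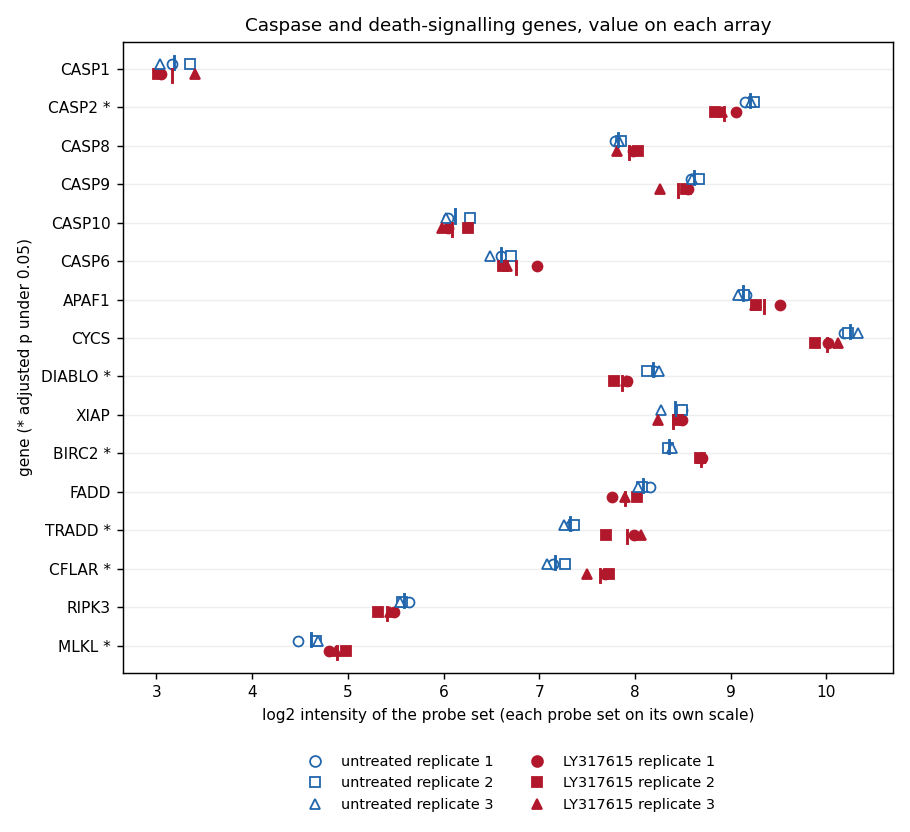
Log2 intensity (x axis) of the 16 measured caspase and death-signalling genes (y axis) on each array; open blue symbols are the 3 untreated and filled red symbols the 3 LY317615 arrays, and vertical ticks are group means. TRADD, CFLAR, BIRC2 and MLKL have every treated array to the right of every untreated one, and CASP2 and DIABLO to the left; asterisks mark the 6 genes that passed.

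Among the genes that restrain p53 or act on its level, PPM1D and FBXO22 fell. PPM1D encodes WIP1, a phosphatase that p53 induces and that switches off the DNA damage response. It read 8.49, 8.44 and 8.51 in untreated and 8.13, 8.07 and 7.93 in treated arrays, a change of -0.43 ± 0.08 (adjusted p = 0.00333). FBXO22, the receptor of an SCF ubiquitin ligase and a p53 target, read 9.12, 9.10 and 9.03 in untreated and 8.76, 8.70 and 8.66 in treated arrays, a change of -0.37 ± 0.07 (adjusted p = 0.00457). In neither gene did the groups overlap.

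MDM2, the ubiquitin ligase that degrades p53 and is itself a p53 target, read 9.63, 9.61 and 9.60 in untreated and 9.46, 9.55 and 9.33 in treated arrays. The untreated arrays were very close together and all treated arrays lay lower, by a change of -0.17 ± 0.08 that did not pass (adjusted p = 0.134). Without LY317615 replicate 3 it was -0.11 (adjusted p = 0.273), and when limma's variance prior followed intensity it passed (adjusted p = 0.0472). MDM4, a relative of MDM2 that blocks p53 activity, read 9.18, 9.09 and 9.06 in untreated and 8.98, 9.04 and 8.88 in treated arrays, a change of -0.14 ± 0.08 (adjusted p = 0.179) without overlap. After cyclic loess the values of these genes were -0.02 for MDM2 and 0.01 for MDM4.

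Growth-arrest and repair genes of the p53 pathway went both ways. GADD45B, a stress gene that NF-kB and TGF-beta also induce, read 8.70, 8.83 and 8.80 in untreated and 8.37, 8.30 and 8.21 in treated arrays, with no overlap and a change of -0.48 ± 0.08 (adjusted p = 0.00196). Its relative GADD45A, the classic p53-induced member of that family, read 7.15, 7.11 and 7.06 in untreated and 7.20, 7.11 and 7.06 in treated arrays. The groups were nearly on top of each other, with a difference of 0.01 ± 0.07 (adjusted p = 0.895).

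PLK3, a stress-responsive polo-like kinase gene, read 6.66, 6.87 and 6.64 in untreated and 6.28, 6.21 and 6.31 in treated arrays. Every treated array was lower, and the change was -0.45 ± 0.09 (adjusted p = 0.00400). CCNG1, the gene of cyclin G1 and an early-found p53 target that recruits phosphatase to MDM2, rose: it read 9.54, 9.50 and 9.51 in untreated and 9.90, 10.00 and 9.86 in treated arrays. The gap between the groups was wider than either group, and the change was 0.41 ± 0.07 (adjusted p = 0.00334). ZMAT3, a p53 target that regulates RNA splicing and stability, read 8.66, 8.80 and 8.68 in untreated and 8.63, 8.76 and 8.36 in treated arrays. The groups overlapped and LY317615 replicate 3 lay lowest; the change of -0.13 ± 0.11 did not pass (adjusted p = 0.375), and without that array it was -0.02.

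Of the nucleotide excision repair genes, XPC rose. XPC, which recognises helix-distorting lesions, read 7.26, 7.19 and 7.30 in untreated and 7.62, 7.74 and 7.57 in treated arrays, with no overlap and a change of 0.39 ± 0.08 (adjusted p = 0.00515). DDB2, which finds ultraviolet damage ahead of XPC, read 7.70, 7.72 and 7.79 in untreated and 7.77, 7.66 and 7.35 in treated arrays. The groups overlapped, and the change was -0.14 ± 0.11 (adjusted p = 0.342), or -0.02 without LY317615 replicate 3. POLH, the polymerase that copies past ultraviolet damage, read 9.02, 9.00 and 8.97 in untreated and 9.27, 9.28 and 8.98 in treated arrays. LY317615 replicates 1 and 2 were higher than all untreated arrays while replicate 3 lay among them; the change of 0.18 ± 0.09 did not pass (adjusted p = 0.167), and without replicate 3 it did at 0.28 (adjusted p = 0.0199).

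The largest change of all 35 genes was the fall of AEN (probe set 7985767). AEN read 8.80, 8.83 and 8.85 in untreated and 7.88, 7.92 and 7.76 in treated arrays. The groups lay far apart compared with their spread, 8.83 ± 0.03 against 7.85 ± 0.08 (SD, n = 3), and the change of -0.98 ± 0.08 (adjusted p = 5.88e-05) ranked 205th from the largest fall among 18417 genes. TP53INP1 (probe set 8151890), whose product promotes p53 phosphorylation and autophagy, went from 8.65, 8.75 and 8.80 in untreated to 9.43, 9.63 and 9.14 in treated arrays. All treated arrays were higher although they spread widely, LY317615 replicate 3 being the lowest of them; the change was 0.67 ± 0.12 (adjusted p = 0.00309), and 0.80 without that array.

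TIGAR, a phosphatase gene that lowers glycolysis and oxidative stress, read 8.80, 8.81 and 8.80 in untreated and 8.31, 8.39 and 8.28 in treated arrays, a change of -0.48 ± 0.07 (adjusted p = 0.00117). TRIAP1, a small survival factor that carries lipids within mitochondria, read 9.58, 9.80 and 9.57 in untreated and 9.26, 9.23 and 9.26 in treated arrays, a change of -0.40 ± 0.08 (adjusted p = 0.00672). Neither gene's groups overlapped. PHLDA3, which keeps AKT from the membrane, rose from 6.72, 7.01 and 6.80 to 7.31, 7.16 and 7.34, a change of 0.42 ± 0.10 (adjusted p = 0.0097) without overlap.

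TP53I3, an oxidoreductase gene, read 7.20, 7.24 and 7.38 in untreated and 7.56, 7.54 and 7.29 in treated arrays. LY317615 replicate 3 fell among the untreated arrays, and the change of 0.19 ± 0.10 did not pass (adjusted p = 0.152), except without that array (0.28, adjusted p = 0.0368). SPATA18, a gene of mitochondrial quality control, was dim and rested on 1 array: it read 4.46, 4.45 and 4.55 in untreated and 4.42, 4.40 and 4.92 in treated arrays. Its difference was 0.10 ± 0.13 (adjusted p = 0.599), and -0.07 without LY317615 replicate 3.

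**Figure D3:**
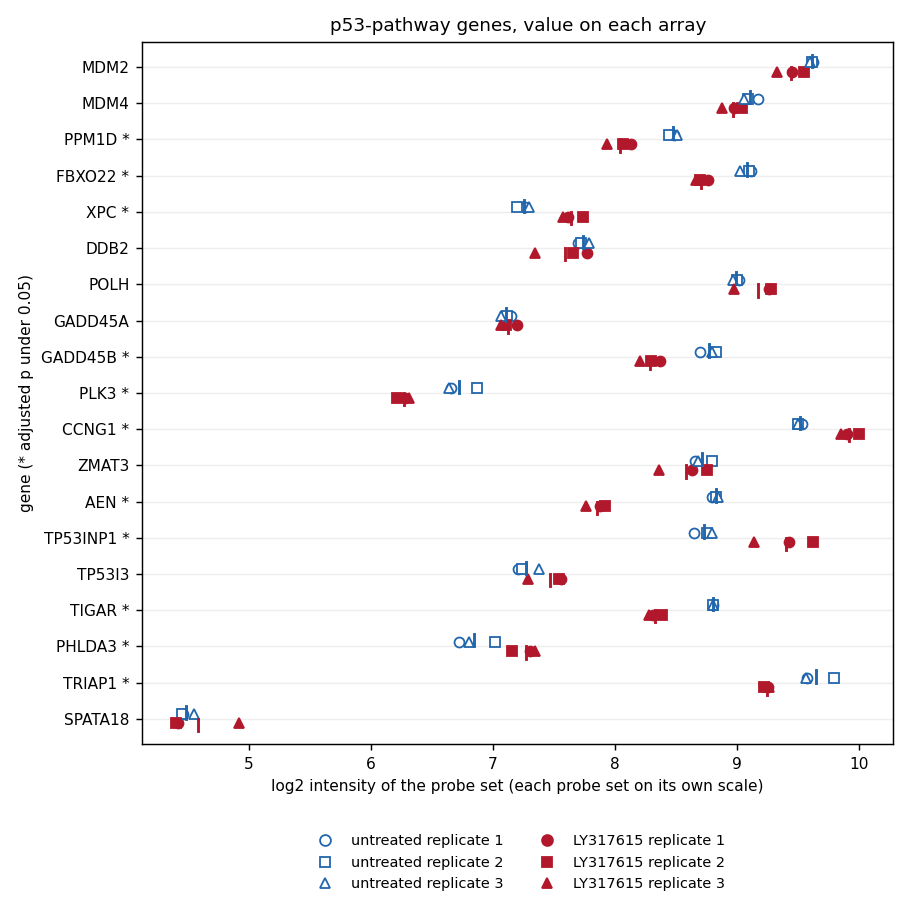
Log2 intensity (x axis) of the 19 measured p53-pathway genes (y axis) on each array; open blue symbols are the 3 untreated and filled red symbols the 3 LY317615 arrays, and vertical ticks are group means. The 7 genes that fell and the 4 that rose (asterisks) have groups that do not overlap, and LY317615 replicate 3 is the lowest treated array for TP53I3, DDB2, ZMAT3 and TP53INP1 among others.

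Promoters of 5 p53-pathway genes, 3 that fell and 2 that rose, are shown because all are described as p53 targets, so their letters can be read beside the opposite directions. The stretches are the 250 bases before the RefSeq gene start (GRCh38.p14), 5′ to 3′ on the gene's strand, for the fallers AEN (chr15:88621090-88621339, plus strand), PPM1D (chr17:60599943-60600192, plus strand) and TIGAR (chr12:4320963-4321212, plus strand) and the risers CCNG1 (chr5:163437321-163437570, plus strand) and XPC (chr3:14178602-14178851, minus strand). Capitals mark a match to the p53 decamer, of which a full p53 site has 2 copies, or to the cAMP response element TGACGTCA; the E-box CACGTG was searched as well.
AEN: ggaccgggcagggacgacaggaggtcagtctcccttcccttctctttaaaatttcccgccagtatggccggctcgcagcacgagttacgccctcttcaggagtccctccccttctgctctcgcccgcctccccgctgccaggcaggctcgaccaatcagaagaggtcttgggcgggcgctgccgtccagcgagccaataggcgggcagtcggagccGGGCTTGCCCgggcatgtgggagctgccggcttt
PPM1D: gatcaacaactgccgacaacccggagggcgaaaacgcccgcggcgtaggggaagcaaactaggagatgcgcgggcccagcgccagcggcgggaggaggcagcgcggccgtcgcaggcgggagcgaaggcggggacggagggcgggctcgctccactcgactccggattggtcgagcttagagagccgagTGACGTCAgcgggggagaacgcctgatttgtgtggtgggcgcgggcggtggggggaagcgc
TIGAR: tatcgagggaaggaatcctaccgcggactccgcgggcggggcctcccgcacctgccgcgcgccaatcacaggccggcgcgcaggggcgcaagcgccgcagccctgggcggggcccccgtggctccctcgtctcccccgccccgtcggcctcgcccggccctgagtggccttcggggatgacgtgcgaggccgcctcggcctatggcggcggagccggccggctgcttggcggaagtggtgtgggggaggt
CCNG1: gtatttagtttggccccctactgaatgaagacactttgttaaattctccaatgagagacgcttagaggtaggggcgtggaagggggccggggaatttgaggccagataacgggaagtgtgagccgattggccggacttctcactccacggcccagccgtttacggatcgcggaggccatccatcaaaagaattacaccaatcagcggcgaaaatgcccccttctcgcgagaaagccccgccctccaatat
XPC: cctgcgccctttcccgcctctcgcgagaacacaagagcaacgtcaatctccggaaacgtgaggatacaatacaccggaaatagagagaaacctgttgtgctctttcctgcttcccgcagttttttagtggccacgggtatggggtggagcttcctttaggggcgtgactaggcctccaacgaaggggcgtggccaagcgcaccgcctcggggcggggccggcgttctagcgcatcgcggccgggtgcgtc
AEN had 1 decamer match, 34 to 25 bases before its start, and PPM1D had 1 cAMP response element, 61 to 54 bases before its start. The bases directly after the AEN match resemble a second decamer but depart from it at their last 2 bases, so they are not marked. TIGAR, CCNG1 and XPC had no match to these letters in this window, and bases outside it were not searched. Each motif reads the same on both strands, so both were searched, and the motifs do not overlap each other here.

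Over the 29 of 37 listed genes whose promoter was matched, 2 held the p53 decamer (6.90%), AEN and FDXR, against 5.53% of 27305 promoters. A full p53 site, with 0 to 13 bases between decamers, was in 0 of 29 and in 0.0293% of all promoters. Adjacent decamers with at most 1 base off were in 0 of 29 and in 0.0879% of all promoters. With sites this rare in all promoters, 0 of 29 says little, and looser matches or sites outside this window were not searched. The E-box CACGTG was in 1, GADD45B (3.45%, against 6.49% of all promoters), and the cAMP response element in 1, PPM1D (3.45%, against 1.77%). The median G and C content of this window was 66.8% in 16 p53-pathway promoters, 67.6% in 13 caspase and death-signalling promoters and 58.0% in all promoters. Of the promoters shown, it was 76.8% in TIGAR, 70.4% in PPM1D and 66.0% in AEN, which fell. It was 54.0% in CCNG1 and 61.2% in XPC, which rose. Among promoters not shown, it was 71.2% in CASP2, 70.0% in PLK3, 69.6% in TRIAP1, 67.2% in DIABLO and 63.2% in GADD45B, which fell. It was 67.6% in BIRC2, 58.8% in CFLAR and 52.0% in MLKL, which rose, so the ranges overlapped. A link between this content and direction was not tested.

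Calls over all genes depended on intensity, and most of the genes described here were bright. Over 5 equal bins of genes from dim to bright, by mean over the 6 arrays, 9.09%, 22.8%, 39.8%, 49.6% and 57.1% passed, and the median log2 fold changes were 0.06, 0.15, 0.11, -0.14 and -0.21. Of the 35 genes, 26 lay in the 2 brightest bins. In the fourth bin 9 of 16 passed, 4 higher and 5 lower, and in the brightest 5 of 10 passed, 2 higher and 3 lower; of all genes in these bins 12.5% and 9.47% passed as higher and 37.0% and 47.6% as lower. The part of intensity in the results was not tested.

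**Figure D4:**
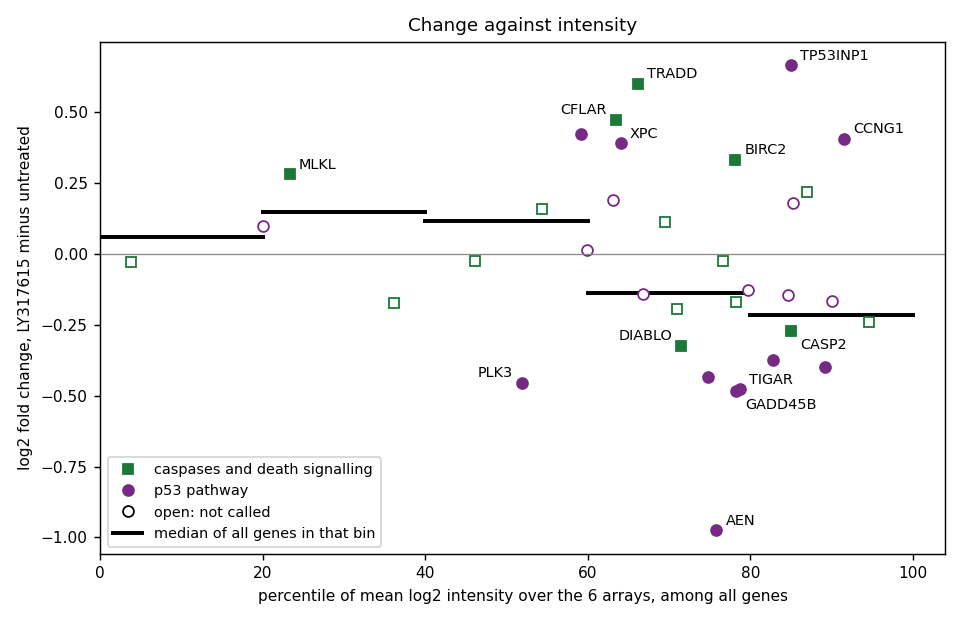
Log2 fold change (LY317615 minus untreated, y axis) against the percentile of mean log2 intensity among all genes (x axis) for the 35 genes; filled symbols passed, and black bars are the median change of all genes in each of 5 equal bins. From dim to bright the bars lie at 0.06, 0.15, 0.11, -0.14 and -0.21; TP53INP1 and CCNG1 lie far above the bar of their bin and AEN far below.

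All 11 p53-pathway genes that passed kept their direction and their call under each of 15 alternatives. Among the caspase and death-signalling genes TRADD, CFLAR and BIRC2 did so, but not CASP2, DIABLO and MLKL. Of these alternatives, averaged probe sets could alter the fold change of CFLAR alone, and the stricter threshold reused the reported p-values. The dimmer CFLAR probe set, 8047381, taken alone, passed only without LY317615 replicate 3, with array weights and after cyclic loess. The p53 median was -0.22 when array medians were equalised and -0.01 after cyclic loess; the caspase median was -0.10 and 0.05, so its sign turned after cyclic loess. With equalised medians CYCS, FADD and RIPK3 also passed and MLKL did not. After cyclic loess CASP8, APAF1, RIPK3 and POLH also passed, and CASP2, DIABLO and MLKL did not. With array medians set equal 5 caspase and death-signalling genes fell and 3 rose, while over all genes 4861 fell and 1523 rose. After cyclic loess 1 caspase or death-signalling gene fell and 5 rose, while over all genes 3287 fell and 2374 rose. Without untreated replicate 3, 3 of the caspase and death-signalling genes passed, TRADD, CFLAR and BIRC2, all higher. Over all genes 4839 passed in that setting.

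**Figure D5:**
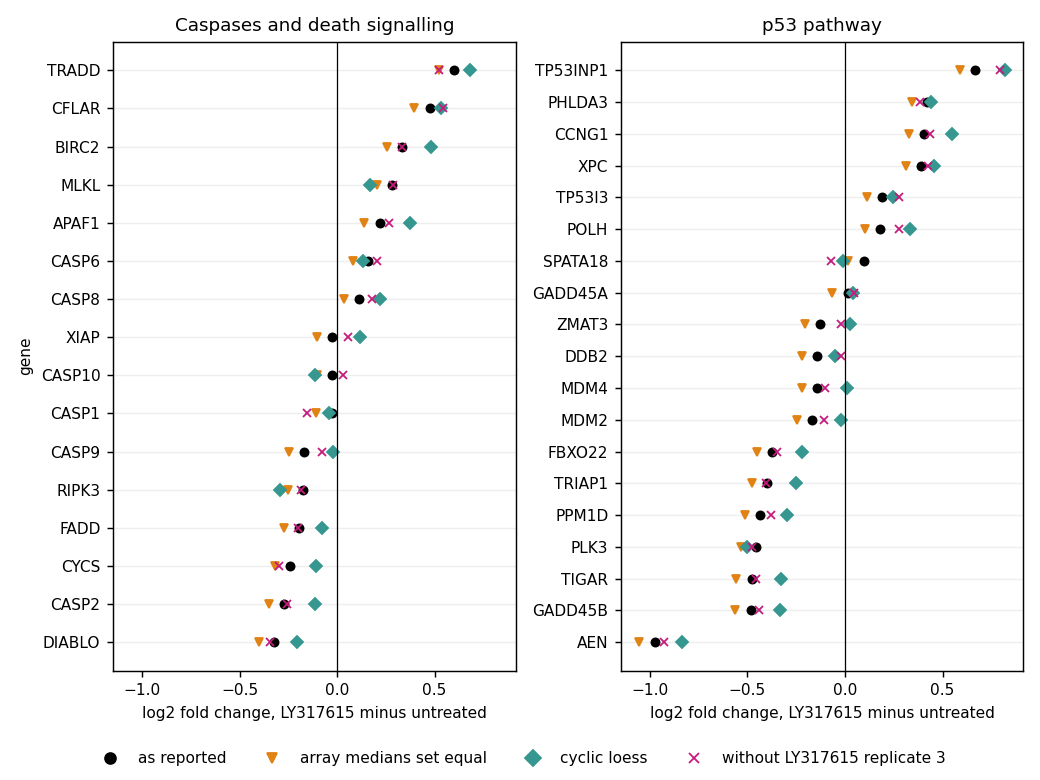
Log2 fold change (LY317615 minus untreated, x axis) of each gene (y axis) as reported (black), with array medians set equal (orange), after cyclic loess (teal) and without LY317615 replicate 3 (pink crosses). Genes that passed in the p53 group stay on their side of 0 under all 4, while XIAP, CASP10, SPATA18, GADD45A, ZMAT3 and MDM4 cross it under at least 1.

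Further genes of cell death were read from a list of 37, of which 32 were measured. Of these, 4 rose and 7 fell, with a median of 0.002, against 14.2% and 21.4% of all genes. The risers were ZBP1, a nucleic acid sensor that can activate RIPK3 (0.57 ± 0.12), GSDMD, the pore-former of pyroptosis (0.53 ± 0.08), the death receptor gene FAS (0.34 ± 0.07) and NAIP, an inflammasome sensor gene (0.34 ± 0.09). The 5 largest falls were those of DEDD2, a nuclear death-effector protein gene (-0.69 ± 0.08), TNFRSF10B (-0.66 ± 0.08), DFFA, the inhibitor of the apoptotic DNase (-0.54 ± 0.09), CRADD, an adaptor for caspase-2 (-0.42 ± 0.08), and TNFRSF10A (-0.30 ± 0.09). TNFRSF10A and TNFRSF10B encode the death receptors for TRAIL. The number that fell was 4 without untreated replicate 2 or 3, without LY317615 replicate 2 or 3 and after cyclic loess, where 8 rose; the call of TNFRSF10A was lost in each of these, and that of NAIP without untreated replicate 3 (adjusted p = 0.0640) and with array medians set equal (0.0532).

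Further p53 targets and regulators came from a list of 39, with 36 measured; 7 rose and 10 fell, and the median was 0.04. Of this list 47.2% passed, against 35.7% of all genes (14.2% higher and 21.4% lower). CDKN1A, the p21 gene and best-known p53 target of growth arrest, changed by -0.20 ± 0.09 and did not pass (adjusted p = 0.103), though it did with array medians set equal (-0.28, adjusted p = 0.0438) and without LY317615 replicate 2 (-0.27, adjusted p = 0.0439). The largest falls were in TP53BP2, a p53 cofactor gene (-0.76 ± 0.08), TNFRSF10D, a decoy receptor for TRAIL (-0.69 ± 0.09), TNFRSF10B, RPS27L (-0.58 ± 0.11) and PMAIP1, the BH3-only gene NOXA (-0.55 ± 0.07). The largest rises were in RPRM (0.60 ± 0.19), TNFAIP8 (0.51 ± 0.08), the cell-cycle regulator gene SERTAD1 (0.51 ± 0.07), the stress gene SESN1 (0.45 ± 0.08) and TP53AIP1 (0.38 ± 0.13). RPRM and TP53AIP1 were dim, their groups overlapped, and their calls were lost without LY317615 replicate 1 or 3 or untreated replicate 2, among other settings. The number that rose was 4 without untreated replicate 2 and without LY317615 replicate 1. In bulk RNA a lower level can mean fewer cells with the transcript or less of it per cell, and these cannot be told apart.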

How the data were processed

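The authors deposited linear intensities for 33297 probe sets on each of the 6 arrays. The submitters' processing notes name RMA, Affymetrix Expression Console and GCOS 1.4 with no order. Since RMA returns log2 values, a return to the linear scale is implied but not described; the genome build is not given in the sources used here. Log2 was taken with no added constant and no further scaling. Of the probe sets, 19460 had exactly 1 gene symbol, 1754 several and 12083 none; the brightest single-symbol probe set stood for each of 18417 genes. Groups came from the labels. Each gene was fitted with limma 3.58.1 in R 4.3.3 (lmFit, eBayes without trend, two-sided), and p-values were adjusted by Benjamini and Hochberg's method across every gene, at 0.05. Errors of changes are standard errors and errors of means are SDs over 3 arrays. The code was tested on simulated data. Promoters were taken from RefSeq by symbol.

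The members and lists were chosen with earlier results of these data known. All members are named; of the 2 lists of further genes, at most 5 per direction that passed, by size of change, and CDKN1A, are named. Python 3.11.15 with pandas 2.3.3 made the tables, and matplotlib 3.10.9 the figures. Alternatives changed 1 choice each: a replicate block, each array left out, a trended variance prior, array weights, equalised array medians, cyclic loess, a filter on the dimmest 30%, averaged probe sets, a constant of 16 before log2, and a stricter adjusted p of 0.01.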

Additional observations from a re-analysis of the deposited data

How the results depend on the processing

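Over all genes 6568 passed, 3586 did at an adjusted p of 0.01, and from 4609 to 6153 did as each array was left out. The 6 calls among caspase and death-signalling genes became 3 at that threshold and ran from 3 to 6 as each array was left out; without untreated replicate 3 they were 3. The 11 calls of p53-pathway genes ran from 11 to 13. Over all genes the number that rose was 2622, and 1523 with array medians set equal, 1566 without untreated replicate 2 and 1715 without untreated replicate 3, while 4861 fell with array medians set equal.

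Signs turned only for members that did not pass. As arrays were left out in turn, CASP1 ran from -0.152 to 0.0553, CASP10 from -0.107 to 0.0535, GADD45A from -0.0225 to 0.0450, SPATA18 from -0.0726 to 0.185, XIAP from -0.0980 to 0.0533 and the caspase median from -0.0855 to 0.0544. With array weights CASP10 was at 0.0020, SPATA18 at -0.0075 and XIAP at 0.0373. After cyclic loess MDM4 was at 0.0115, SPATA18 at -0.0075, XIAP at 0.119, ZMAT3 at 0.0233 and the caspase median at 0.0493. With array medians set equal GADD45A was at -0.0639. The cause was not tested.

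The labels give both groups the replicate numbers 1 to 3 without saying that they mark a shared culture or day. For that reason the arrays were not treated as pairs. Deviations of same-numbered arrays from their group means correlated at -0.0170, 0.0932 and 0.0664. Numbers 2 and 3 correlated best with their own number and number 1 did not. Such deviations are not independent within a group, so these values do not decide whether the arrays were paired. With the replicate number as a block 6548 genes passed, 5 of the caspase and death-signalling genes and 11 of the p53-pathway genes.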
